A study of Mus musculus with 9 samples.

Results

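Cohesin and condensin are the ring-shaped protein complexes that hold and shape chromosomes, and 10 genes for their core subunits were followed here among the 15184 genes measured. They were taken by name: Smc1a, Smc3, Rad21, Stag1 and Stag2 for cohesin, and Smc2, Smc4, Ncapd2, Ncapg and Ncaph for condensin. All 10 were found, and all 10 passed the filter that the table carries on low values. PolyA+ RNA was sequenced from mouse embryonic fibroblasts (MEFs), primary connective-tissue cells of the mouse embryo, in 9 libraries. Wild-type MEFs had received the lentiviruses lentiMPHv2 and lentiSAMv2, which together deliver the synergistic activation mediator (SAM), a dead Cas9 activator system that a guide RNA brings to a gene's promoter, and were selected with blasticidin and hygromycin. The 3 libraries labelled Empty came from the empty vector MEFs, for which the study's methods give lentiSAMv2 with a nontargeting guide. The genotype Hnrnpk_SAM, with guides against Hnrnpk, was given to 3 libraries labelled SAM1 and 3 labelled SAM2. The methods used 2 Hnrnpk guides separately, but the labels do not say which guide is in SAM1 and which in SAM2, and the methods print 1 sequence for both the second Hnrnpk guide and the nontargeting guide. Whether the lines are clones is not given in the sources used here. Nothing says that libraries of 1 label came from separate cultures, so p-values measure the spread between these libraries, which may be technical.

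Each complex is a ring of 2 structural maintenance of chromosomes (SMC) proteins closed by a kleisin protein. Cohesin holds sister chromatids together from replication to anaphase and extrudes the chromatin loops that end at CTCF sites, so it is needed in cycling and resting cells alike. Condensin compacts and individualizes chromosomes in mitosis, and its transcripts are typically abundant in dividing cells. Condensin I, with Ncapd2, Ncapg and Ncaph, reaches the chromosomes once the nuclear envelope breaks down, while condensin II, with Ncapd3, Ncapg2 and Ncaph2, is nuclear throughout.

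Promoters of 7 of the 10 genes were found in a RefSeq promoter table on the mouse assembly GRCm38.p6, from 250 bases before to 50 bases after each start site. Rad21, Stag2 and Smc4 were not among them. The 6 letters TTTGAA, the core of the cell cycle homology region (CHR) known from promoters of genes expressed in G2 and mitosis, were searched on both strands. They were present in the promoters of Ncapd2, Ncapg and Smc2, 3 of the 4 condensin genes with a promoter, and in 0 of the 3 cohesin promoters. The condensin promoter without them was that of Ncaph, which was also higher than Empty in both lines (log2 fold changes 1.23 in SAM1 and 1.36 in SAM2). Of all 32851 promoters in the table, 17.9% held the letters. The letters were also in promoters of some partner genes listed below. Of these, Cdca5, Ctcf, Ncapd3, Ncapg2 and Smchd1 were higher than Empty in both lines and Smc6 was lower in both. Pds5b was lower in SAM1, and Hdac8 was lower in SAM1 and higher in SAM2. The letters were absent from the promoters found for Sgo1, Sgo2a and Wapl, which were higher in both lines. The stretches below, 180 bases each and read 5′ to 3′ on the gene's strand, show the 3 condensin genes with the letters and, for comparison, Smc3, a cohesin gene without them. Capitals mark TTTGAA or its reverse complement TTCAAA. They lie at chr6:125191587-125191766 (minus strand), chr5:45669745-45669924 (plus), chr4:52439041-52439220 (plus) and chr19:53600216-53600395 (plus).
Ncapd2: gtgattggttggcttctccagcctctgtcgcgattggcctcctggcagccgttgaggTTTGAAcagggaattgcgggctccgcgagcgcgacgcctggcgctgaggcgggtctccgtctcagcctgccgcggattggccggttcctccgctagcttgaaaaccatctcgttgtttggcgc
Ncapg: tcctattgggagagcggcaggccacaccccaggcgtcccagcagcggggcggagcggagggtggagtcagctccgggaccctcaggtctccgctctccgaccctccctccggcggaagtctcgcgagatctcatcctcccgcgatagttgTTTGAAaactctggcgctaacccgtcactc
Smc2: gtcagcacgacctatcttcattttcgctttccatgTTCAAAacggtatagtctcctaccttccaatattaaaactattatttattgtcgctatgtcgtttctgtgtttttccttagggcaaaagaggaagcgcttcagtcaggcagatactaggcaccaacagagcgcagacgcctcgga
Smc3: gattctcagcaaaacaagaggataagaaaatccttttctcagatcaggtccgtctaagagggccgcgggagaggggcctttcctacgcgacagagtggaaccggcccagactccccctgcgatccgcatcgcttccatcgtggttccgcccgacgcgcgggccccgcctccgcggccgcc
Other sets of letters were searched in the same windows on both strands. The E2F-type letters TTTCCCGC were in 1 of the 4 condensin and 2 of the 3 cohesin promoters (1.07% of all promoters). TTTGGCGC was in 1 condensin and 0 cohesin promoters (0.514%), and CCAAT was in 3 and 2 (37.4%). These matches describe letters and are not evidence of binding.

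Hnrnpk, the targeted gene, was checked first. It had 25058, 26098 and 26164 normalized counts in the libraries labelled Empty, 24102, 24045 and 23619 in SAM1, and 26608, 26859 and 26221 in SAM2. The SAM1 libraries were all below the Empty libraries (log2 fold change -0.11 ± 0.03 SE, adjusted p = 0.00252), and the SAM2 libraries were all above them without passing the test (0.04 ± 0.03, adjusted p = 0.159). The direction of Hnrnpk turned with the scaling: under quantile normalization it was 0.09 higher in SAM1 and 0.22 higher in SAM2 (adjusted p = 0.00502 and 4.59e-06), and under upper quartile scaling the SAM1 value was -0.05 (adjusted p = 0.129). With the deposited scaling, then, Hnrnpk RNA went against the label in SAM1, and every direction below is a difference between libraries so labelled, not shown by these libraries to be an effect of more Hnrnpk RNA. The study also measured Hnrnpk by qRT-PCR and Western blot, which were not analysed here.

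The libraries held 41759636 to 49026626 reads on the listed genes. The members took 0.109 to 0.112% of these reads in Empty, 0.182 to 0.187% in SAM1 and 0.174 to 0.176% in SAM2. The lowest member count in any library was 871 reads (Ncaph, Empty replicate 3, 95% exact Poisson interval 814 to 931, which covers counting error only). All 9 fibroblast markers checked, among them Col1a1, Vim and Thy1, were in the table, with summed normalized counts of 639019 to 685122 in Empty, 546466 to 549374 in SAM1 and 700585 to 721027 in SAM2. Of these 9 markers 7 were lower and 2 higher in SAM1, where 36.9% of all genes were called lower and 37.3% higher. In SAM2 4 were lower and 3 higher, where 35.3% of all genes were called lower and 35.2% higher. Dcn, the proteoglycan decorin, had -2.12 in SAM1 and -2.22 in SAM2 on the log2 scale, Pdgfra had -0.60 and -0.81, and Lum had -1.98 and -0.02. Others of the 9 rose: Pdgfrb had 0.94 and 0.54, Vim 0.55 and -0.08, and Col1a1 -0.34 and 0.39. The part of these markers in the members' differences was not tested. The libraries numbered 2 were the lowest of their group for 8 of the 10 members in Empty, 8 of 10 in SAM1 and 7 of 10 in SAM2, so counts are also given without those 3 libraries. How often they were lowest over all genes was not counted, so this is not shown to be particular to the members.

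Against the empty vector, all 10 genes were higher in the libraries labelled SAM1, and 8 of 10 were higher, with 0 lower, in those labelled SAM2. Condensin genes showed the larger differences. Their median log2 fold change was 1.23 in SAM1 and 1.13 in SAM2, against 0.45 and 0.10 for the cohesin genes and 0.0093 and -0.0015 for all 15184 genes. These counts are read against a wide background, because 37.3% of all genes were called higher and 36.9% lower in SAM1, and 35.2% higher and 35.3% lower in SAM2, at an adjusted p under 0.05. The rise was over 1 on the log2 scale for 3 of 10 members in each line, Ncapd2, Ncapg and Ncaph, against 12.7% of all genes in SAM1 and 8.52% in SAM2. Both comparisons use the same 3 Empty libraries, so they are not independent of each other. With the 6 SAM libraries pooled, 8 of 10 members were higher (26.8% of all genes higher, 27% lower). The exceptions were Stag1 (0.25, adjusted p = 0.11) and Stag2 (0.03, adjusted p = 0.732), whose groups overlap when the lines are pooled. Leaving out the 3 libraries numbered 2 gave 10, 9 and 7 members called in SAM1, SAM2 and both together, with Stag2 in SAM2 then called lower (-0.07, adjusted p = 0.0249). Over all genes, 5525 were then higher and 5533 lower in SAM1, 5210 and 5274 in SAM2, and 3085 and 3135 in both together. The cells were measured in bulk, where a change in the share of cells of 1 kind cannot be told apart from a change in RNA per cell.

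**Figure D1:**
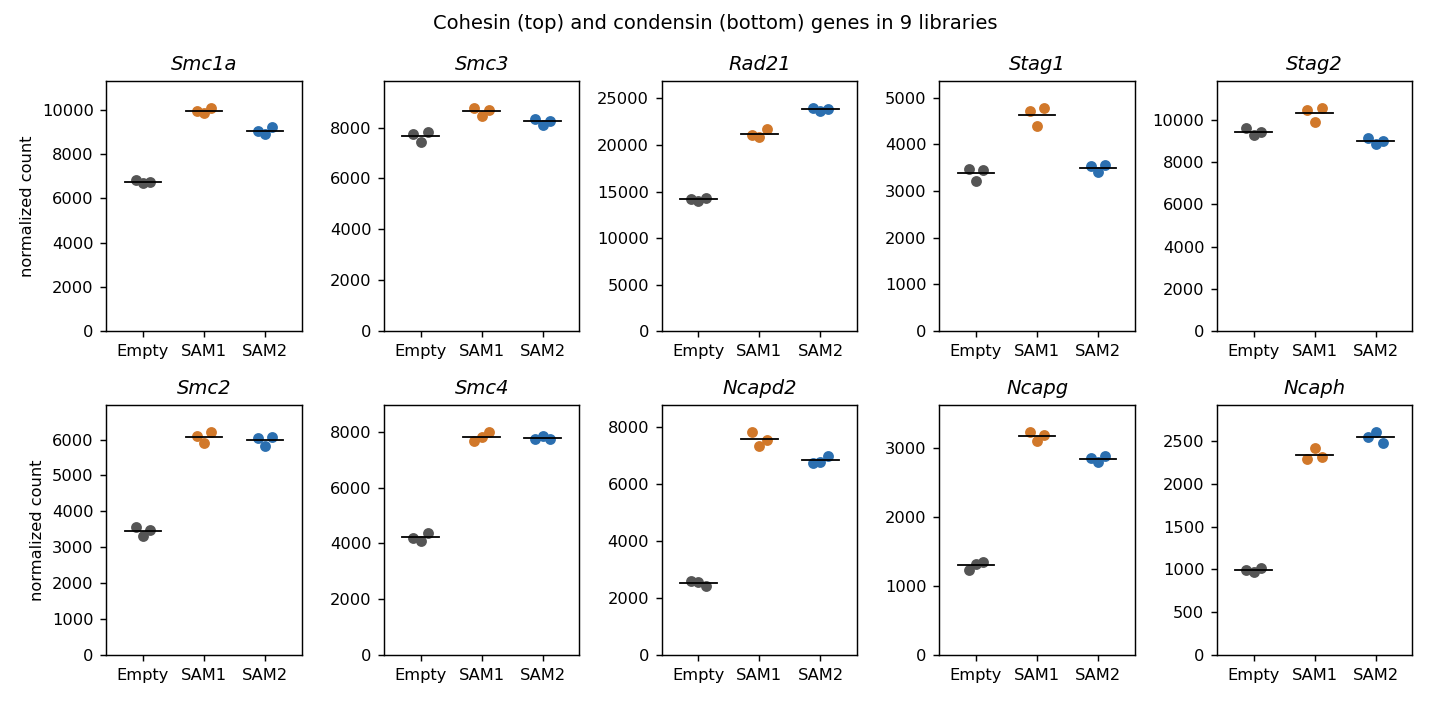
Normalized counts (vertical axes, from 0) of the 5 cohesin genes (top) and the 5 condensin genes (bottom) in the 3 libraries of each label. Points are libraries and black lines are means. Ncapd2 lies at 2423 to 2584 in Empty and at 6742 or more in every SAM library, while the Stag1 libraries of SAM2 overlap those of Empty.

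The 3 condensin I subunits had the largest rises of the 10 genes. Ncapd2 (chr6:125144962-125169080, minus strand, GRCm39) encodes the HEAT-repeat subunit that helps to load condensin I on chromosomes. Its normalized counts were 2584, 2554 and 2423 in Empty, 7832, 7328 and 7541 in SAM1, and 6742, 6749 and 6982 in SAM2. No library of 1 label overlapped those of another. Ncapd2 was higher by 1.59 ± 0.03 (SE, n = 3 and 3) in SAM1 and 1.44 ± 0.03 in SAM2 on the log2 scale, or 3.00-fold and 2.71-fold (adjusted p = 2.61e-13 and 1.12e-12, limma). Ncapd2 stood above 93.3% of all genes in SAM1 and above 95.1% in SAM2. SAM2 was 0.15 lower than SAM1 (adjusted p = 0.00249). Of its canonical transcript, 317 of 5045 bases overlap exons of other genes. Exons of Ncapd2 overlap those of Gm28967 and Scarna10 on the same strand and of Mrpl51 on the opposite strand. The log2 fold changes of Mrpl51 were 0.22 and 0.10. Whether the counting used strand is not given in the sources used here.

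Ncapg (chr5:45827150-45859062, plus strand), the second HEAT-repeat subunit of condensin I, had normalized counts of 1225, 1320 and 1343 in Empty, 3235, 3097 and 3189 in SAM1, and 2849, 2790 and 2886 in SAM2. The 3 groups did not overlap. The log2 fold change was 1.29 ± 0.04 in SAM1 and 1.13 ± 0.04 in SAM2 (adjusted p = 5.48e-12 and 3.21e-11), and SAM2 was 0.16 lower than SAM1 (adjusted p = 0.00347). Of its transcript, 1943 of 4988 bases overlap exons of Lcorl on the other strand. Lcorl had 1449 to 1723 normalized counts in Empty, 1002 to 1157 in SAM1 and 1403 to 1497 in SAM2.

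Ncaph (chr2:126945729-126975874, minus strand) encodes the kleisin that closes the condensin I ring. It had 995, 970 and 1018 normalized counts in Empty, 2289, 2413 and 2315 in SAM1, and 2550, 2611 and 2478 in SAM2. It was the condensin gene whose SAM2 libraries all lay above those of SAM1. Ncaph had log2 fold changes of 1.23 ± 0.04 in SAM1 and 1.36 ± 0.04 in SAM2 (adjusted p = 5.02e-12 and 3.50e-12). The line difference of 0.12 (adjusted p = 0.0121) was lost under quantile normalization (0.06, adjusted p = 0.216) and upper quartile scaling (0.07, adjusted p = 0.145). It was also lost without SAM1 replicate 1 (adjusted p = 0.0532) or SAM2 replicate 2 (adjusted p = 0.0605).

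The condensin SMC pair, Smc2 and Smc4, serves both condensin complexes, and the 2 genes had differences of like size in both lines. Smc2 (chr4:52439214-52488264, plus strand) had 3552, 3319 and 3478 normalized counts in Empty, 6086, 5891 and 6224 in SAM1, and 6057, 5832 and 6064 in SAM2. The SAM lines overlapped each other and lay above every Empty library. Its log2 fold change was 0.81 ± 0.03 in SAM1 and 0.79 ± 0.03 in SAM2 (adjusted p = 1.29e-10 and 2.53e-10). The difference between the lines was -0.02, with a 95% interval from -0.09 to 0.05. Exons of Smc2os on the opposite strand overlap 359 of the 5404 bases of its transcript.

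Smc4 (chr3:68911944-68941960, plus strand) had 4199, 4080 and 4368 normalized counts in Empty, 7689, 7806 and 8019 in SAM1, and 7747, 7866 and 7767 in SAM2. The SAM lines again overlapped each other above the Empty libraries. Its log2 fold change was 0.89 ± 0.03 in each line (adjusted p = 2.02e-11 and 3.54e-11). The difference between the lines was -0.01, with a 95% interval from -0.08 to 0.06.

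Among the cohesin genes, Rad21, the kleisin that separase cleaves at anaphase, had the largest rise. Rad21 (chr15:51825636-51855179, minus strand) had 14179, 13993 and 14356 normalized counts in Empty, 21024, 20890 and 21722 in SAM1, and 23992, 23666 and 23844 in SAM2. The 3 groups were separate, with SAM2 highest. Rad21 had log2 fold changes of 0.58 ± 0.03 in SAM1 and 0.75 ± 0.03 in SAM2 (adjusted p = 2.17e-10 and 2.90e-11), and SAM2 was 0.17 above SAM1 (adjusted p = 9.09e-05).

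Smc1a and Smc3 form the SMC pair of mitotic cohesin, and they did not move by the same amount. Smc1a (chrX:150799424-150846390, plus strand) had 6831, 6695 and 6710 normalized counts in Empty, 9915, 9843 and 10078 in SAM1, and 9023, 8913 and 9193 in SAM2. The 3 groups were separate, with SAM1 highest. Smc1a had log2 fold changes of 0.56 ± 0.03 in SAM1 and 0.42 ± 0.03 in SAM2 (adjusted p = 3.57e-10 and 8.32e-09), and SAM2 was 0.14 lower than SAM1 (adjusted p = 0.000513).

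Smc3 (chr19:53588818-53634295, plus strand), whose acetylation locks cohesin on replicated DNA, had 7744, 7432 and 7829 normalized counts in Empty, 8775, 8438 and 8693 in SAM1, and 8353, 8088 and 8276 in SAM2. Both SAM lines lay above Empty by a small margin. Smc3 had log2 fold changes of 0.17 ± 0.03 in SAM1 and 0.10 ± 0.03 in SAM2 (adjusted p = 0.000158 and 0.00702), the lowest rises among the members called in both lines. Smc3 stood above 61.2% of all genes in SAM1 and 59% in SAM2. The 2 SAM lines differed by -0.07 (adjusted p = 0.0651), a difference that passed the test without Empty replicate 2 (adjusted p = 0.0399) or SAM1 replicate 2 (adjusted p = 0.0315). Over both lines together its rise of 0.14 (adjusted p = 0.0118) was lost without Empty replicate 2 (0.12, adjusted p = 0.0572).

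Stag1 and Stag2 encode alternative subunits that bind Rad21, so that each cohesin ring carries one or the other. Stag1 (chr9:100479740-100841428, plus strand) had 3465, 3220 and 3458 normalized counts in Empty, 4722, 4390 and 4781 in SAM1, and 3527, 3412 and 3549 in SAM2. The SAM1 libraries stood above all the others, and the SAM2 libraries overlapped those of Empty. The log2 fold change was 0.45 ± 0.04 in SAM1 (adjusted p = 2.73e-07) and 0.05 ± 0.04 in SAM2 (adjusted p = 0.296), where the 95% interval ran from -0.04 to 0.14. The difference between the lines, -0.40 ± 0.04, was the largest of the 10 members (adjusted p = 1.98e-06).

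Stag2 (chrX:41238146-41368132, plus strand) had 9592, 9271 and 9435 normalized counts in Empty, 10460, 9874 and 10564 in SAM1, and 9114, 8867 and 8987 in SAM2. SAM1 lay above and SAM2 below the Empty libraries, with no overlap. The log2 fold change was 0.13 ± 0.03 in SAM1 (adjusted p = 0.00228) and -0.07 ± 0.03 in SAM2 (adjusted p = 0.0600), and the lines differed by -0.20 (adjusted p = 0.000116). The SAM2 value passed the test without Empty replicate 2 (adjusted p = 0.0425) or SAM1 replicate 2 (adjusted p = 0.0236), and by edgeR on the recovered reads (adjusted p = 0.0454).

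Between the lines, then, 2 of 10 members were higher in SAM2 than in SAM1 (Rad21 and Ncaph), 5 were lower (Smc1a, Stag1, Stag2, Ncapd2 and Ncapg) and 3 did not pass the test. Over all genes 31.1% were higher and 29.2% lower in SAM2 than in SAM1, so the share of members that differed was near that of the whole table.

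**Figure D2:**
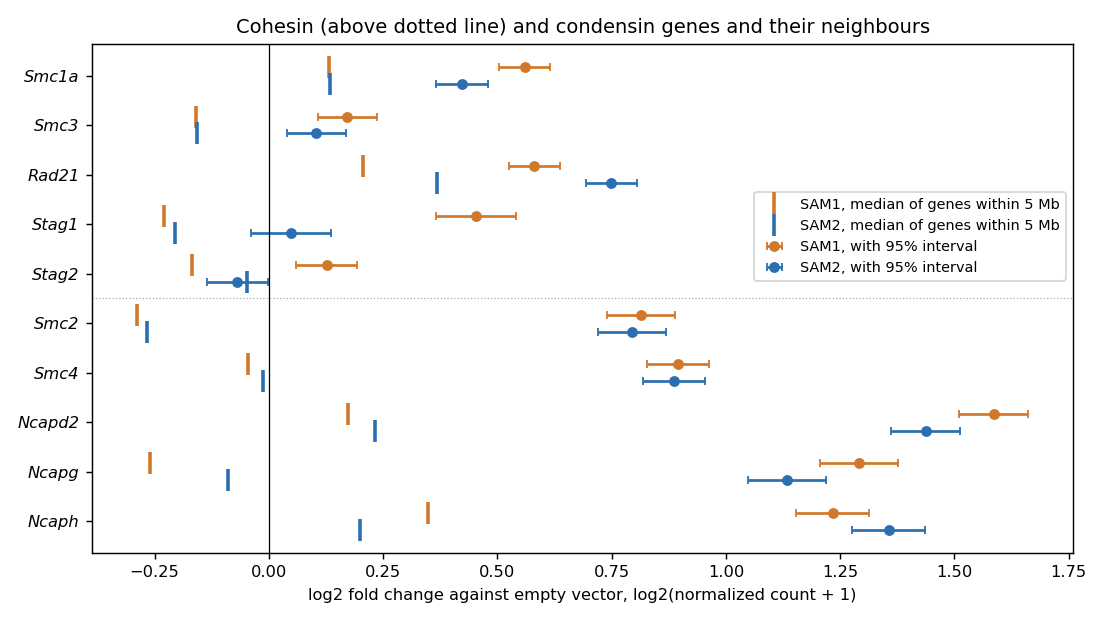
Log2 fold change against the empty vector (horizontal axis) of each member in SAM1 (orange) and SAM2 (blue), as points with 95% intervals from limma, with the median of the measured genes within 5 Mb as vertical ticks. The condensin genes, below the dotted line, lie between 0.79 and 1.59, while the medians of all the members' neighbours lie between -0.29 and 0.37.

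The genes around each member were looked at to place its value. Within 5 Mb of Ncapd2, the median log2 fold change of 100 measured genes was 0.17 in SAM1 and 0.23 in SAM2, far under the value of Ncapd2 itself. The 31 neighbours of Smc2 had medians of -0.29 and -0.27, and 93.5% and 96.8% of them lay below Smc2. The smallest gap to the neighbours among the condensin genes was that of Ncaph in SAM1, where 107 neighbours had a median of 0.35. Rad21 lies on a chromosome with a shifted median. The 595 other measured genes of chromosome 15 had a median of 0.19 in SAM1 and 0.32 in SAM2, and 54.5% and 65.5% of them were called higher. Rad21 exceeded that median by 0.39 and 0.43. Within 5 Mb its 20 neighbours had medians of 0.207 and 0.368, which Rad21 exceeded by 0.375 and 0.382. Smc1a exceeded the median of its own neighbours within 5 Mb by 0.429 and 0.287, and Stag1 by 0.684 and 0.255. Rad21, with the largest rise of the cohesin genes, thus did not have the largest gap to its neighbours in SAM1. The chromosomes of Ncaph and Ncapd2 were also shifted upward. For Ncaph the medians were 0.27 in SAM1 and 0.16 in SAM2, with 62.7% and 49.3% of genes called higher. For Ncapd2 they were 0.13 and 0.24, with 47.0% and 56.0% called higher. Ncaph exceeded its chromosome's medians by 0.96 and 1.2, and Ncapd2 by 1.46 and 1.2. The chromosomes of Smc3, Stag1, Smc2 and Ncapg had negative medians in both lines. The part of the chromosome-wide shifts in the members' values was not tested. For Stag2 the 17 neighbours had medians of -0.17 and -0.05.

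**Figure D3:**
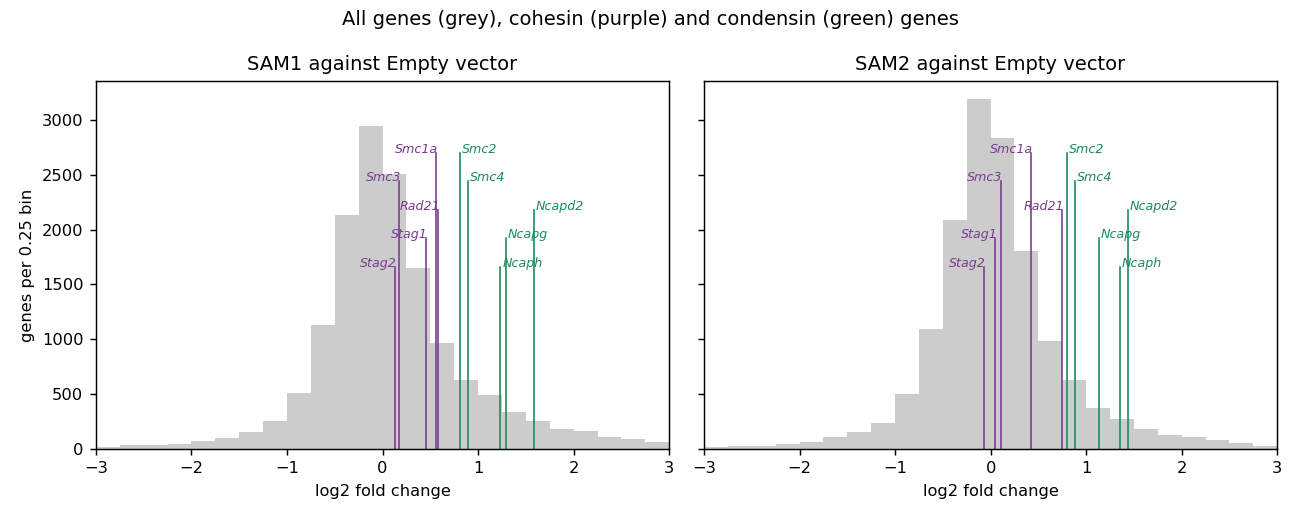
Number of genes per bin of log2 fold change (grey bars) for SAM1 and SAM2 against the empty vector, with the cohesin genes (purple lines) and the condensin genes (green lines) at their values. The height of a line has no meaning, and genes beyond the axis are not drawn. The condensin genes sit in the right shoulder, above 84.4% of all genes or more, and Stag2 and Smc3 sit near the centre.

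Ratios of 2 genes within a library do not depend on the scaling of that library. The log2 ratio of Smc3 to Smc1a was 0.18 ± 0.04 (SD, n = 3) in Empty, -0.20 ± 0.02 in SAM1 and -0.13 ± 0.02 in SAM2, so that the order of the 2 normalized counts turned over. The mean of the 6 SAM libraries was 0.35 lower (exact permutation test over 84 splits, two-sided, p = 0.0119, the smallest it can give, adjusted p = 0.0179 over 3 ratios). Which of the 2 counts is larger also depends on the lengths of the genes. Per kb of all annotated exons Smc3 stayed above Smc1a, at 1335 and 680.5 in Empty, 1503 and 1003 in SAM1, and 1434 and 912.2 in SAM2. The log2 ratio of Stag2 to Stag1 was 1.48 ± 0.04 in Empty, 1.15 ± 0.01 in SAM1 and 1.36 ± 0.02 in SAM2. The Stag1 share of the summed normalized counts of Stag1 and Stag2 was accordingly 25.8 to 26.8% in Empty, 30.8 to 31.2% in SAM1 and 27.8 to 28.3% in SAM2. The 6 SAM libraries differed from Empty by -0.22 (exact permutation test, p = 0.0238, adjusted p = 0.0238). This call was lost without Empty replicate 2 (-0.20, exact permutation p = 0.107) and without SAM1 replicate 1, 2 or 3 (exact permutation p = 0.0536, 0.0714 and 0.0536). The log2 ratio of Smc4 to Smc2 was 0.29 ± 0.04 in Empty, 0.37 ± 0.03 in SAM1 and 0.38 ± 0.04 in SAM2, a difference of 0.09 (exact permutation test, p = 0.0119, adjusted p = 0.0179), which was lost without Empty replicate 1 (0.06, exact permutation p = 0.0714). With 3 libraries against 3 an exact test cannot reach p = 0.05, so single lines are given as values.

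**Figure D4:**
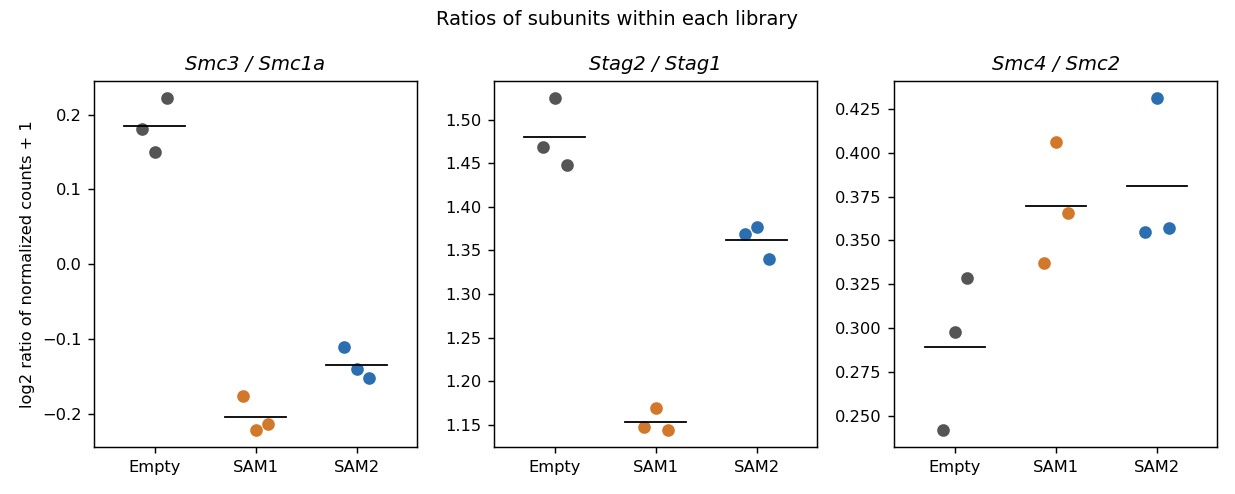
Log2 ratio of normalized counts (plus 1) of 2 subunits in each library, for the cohesin SMC pair, the Stag pair and the condensin SMC pair. Points are libraries and lines are means, and each vertical axis covers its own range. The ratio of Smc3 to Smc1a lies above 0 in the 3 Empty libraries and below 0 in the 6 SAM libraries.

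Levels of different genes were set side by side per kb of canonical transcript. Rad21 was the most abundant member at 3583 ± 46.0 normalized counts per kb in Empty (SD, n = 3), 5362 ± 113 in SAM1 and 6025 ± 41.3 in SAM2. In Empty the next were Smc3 at 1581 ± 43.2, Smc1a at 1438 ± 15.8, Stag2 at 1145 ± 19.5 and Smc4 at 976 ± 33.5 per kb. The lower part of that order was Smc2 at 638 ± 22.0, Stag1 at 547 ± 22.6, Ncapd2 at 499 ± 17, Ncaph at 369 ± 8.91 and Ncapg at 260 ± 12.6 per kb. The 4 most abundant members in Empty were thus cohesin genes. In SAM1 Smc4 reached 1814 ± 38.7 per kb and Smc3 1780 ± 36.2, which do not differ beyond their spread, and Ncapd2 reached 1500 ± 50.2, above Stag2 at 1250 ± 45.1. In SAM2 Stag1 at 565 ± 11.9 and Ncapg at 570 ± 9.68 per kb did not differ beyond their spread, nor did Stag2 at 1091 ± 15.0 and Smc2 at 1107 ± 24.4. The length used moves these levels: over the union of all annotated exons Smc1a fell from 1438 to 681 per kb in Empty, while Rad21 stayed first and Ncapg last.

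The partner genes, 23 of 26 listed, showed a mixed picture, with 13 higher and 7 lower in SAM1 and 15 higher and 3 lower in SAM2 (median log2 fold change 0.28 and 0.35). Beside these stand the shares over all genes, 37.3% higher and 36.9% lower in SAM1 and 35.2% higher and 35.3% lower in SAM2. Smc1b, Rec8 and Rad21l, subunits of meiotic cohesin, were not in the table. The 3 condensin II genes Ncapd3 (0.44 and 0.70), Ncapg2 (1.13 and 0.89) and Ncaph2 (0.26 and 0.33) were called higher in both lines. Ncaph2 lies on chromosome 15 and exceeded that chromosome's median by 0.07 in SAM1 and 0.01 in SAM2. The ratio of Ncapd2 to Ncapd3 normalized counts had a median of 1.67 in Empty, 3.89 in SAM1 and 2.86 in SAM2. The ratio of Ncaph to Ncaph2 had a median of 0.142, 0.271 and 0.280, and that of Ncapg to Ncapg2 0.748, 0.813 and 0.874. These ratios were chosen after their values were seen and are descriptions. Of the canonical transcripts, 2023 of 3241 bases of Ncaph2 and 1218 of 5639 bases of Ncapd3 overlap exons of other genes on the opposite strand.

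Among the cohesin partners, Esco2 had the largest fold change. Esco2, the acetyltransferase that acts on Smc3 in S phase, had 267, 200.6 and 252 normalized counts in Empty, 764, 782 and 747 in SAM1, and 897, 784 and 818 in SAM2. Its log2 fold changes of 1.68 ± 0.09 and 1.80 ± 0.09 were the largest of the partner list. Its 80 measured neighbours within 5 Mb were themselves shifted, with medians of 0.79 and 0.84, and 82.5% and 86.2% of them were called higher. Above its neighbours' median Esco2 stood by 0.89 and 0.96, less than Cdca5 (1.31 and 1.08), Sgo1 (1.06 and 1.09) and Sgo2a (1.39 and 1.27). The part of the shift around Esco2 in its value was not tested. Cdca5 (sororin), which protects cohesin from release, rose in both lines, from 473 to 561 normalized counts in Empty to 1203 to 1224 in SAM1 and 983 to 1066 in SAM2. The shugoshin genes Sgo1 and Sgo2a rose by 1.21 and 0.85 in SAM1 and by 1.22 and 0.84 in SAM2. Of the Sgo2a transcript, 2455 of 5323 bases overlap exons of Kctd18 on the opposite strand. Wapl, which opens the ring, rose by 0.61 and 0.72. Like Esco2 it lies on chromosome 14, where the 512 other measured genes had medians of 0.53 and 0.57 and 73.2% and 74.8% were called higher, so that Wapl exceeded the chromosome's median by 0.08 and 0.16 and that of its neighbours within 5 Mb by 0.42 and 0.52. Pds5a and Pds5b, regulators that sit on the ring, were lower in SAM1 (-0.38 and -0.35) and did not pass the test in SAM2 (-0.03 and -0.03). Esco1, the acetyltransferase that acts outside S phase, and Hdac8, which removes the mark from Smc3, were lower in SAM1 (-0.12 and -0.12) and higher in SAM2 (0.12 and 0.63). The SAM1 calls of both were lost under upper quartile scaling (adjusted p = 0.254 and 0.190) and by DESeq2 (0.0656 and 0.0641), and the SAM2 call of Esco1 under quantile normalization (adjusted p = 0.374) and by DESeq2 (0.0697). Ctcf, the boundary protein at which cohesin stops, rose by 0.28 and 0.35.

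Nipbl, the cohesin loader, was higher by 0.40 and 0.66, and its partner Mau2 had -0.03 (adjusted p = 0.541) and 0.10 (adjusted p = 0.0304). Nipbl is also on chromosome 15, where the 15 measured genes within 2 Mb of it had medians of 0.40 and 0.66. Within 5 Mb the medians were 0.29 and 0.44, and Nipbl exceeded these by 0.11 and 0.23 and the medians of the whole chromosome by 0.21 and 0.35. In the SMC5/6 complex, which acts in DNA repair, Smc5 did not pass the test in either line (0.01 and 0.07, although under quantile normalization 0.10 and 0.11 passed and the SAM2 value passed with a replicate block at adjusted p = 0.0213), Smc6 was lower in both (-0.25 and -0.16), and Nsmce3 was lower, from 1969 to 2139 normalized counts in Empty to 836 to 955 in SAM1 and 1007 to 1101 in SAM2 (log2 fold changes -1.17 and -0.93). Of its 6 genes 1 was higher in each line, Nsmce2 (0.54 and 0.83), and 3 were lower, with Nsmce1 (-0.50 and -0.67) beside Smc6 and Nsmce3. Over all genes 37.3% were higher and 36.9% lower in SAM1, and 35.2% higher and 35.3% lower in SAM2. Smchd1, an SMC-related silencer of the inactive X chromosome, rose by 0.28 and 0.61. Stag3, a meiotic subunit, had 11.7 to 26.3 normalized counts in Empty and 29.6 to 48.8 in SAM1, a difference that was lost under quantile normalization (adjusted p = 0.132). Its level was low in every library.

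**Figure D5:**
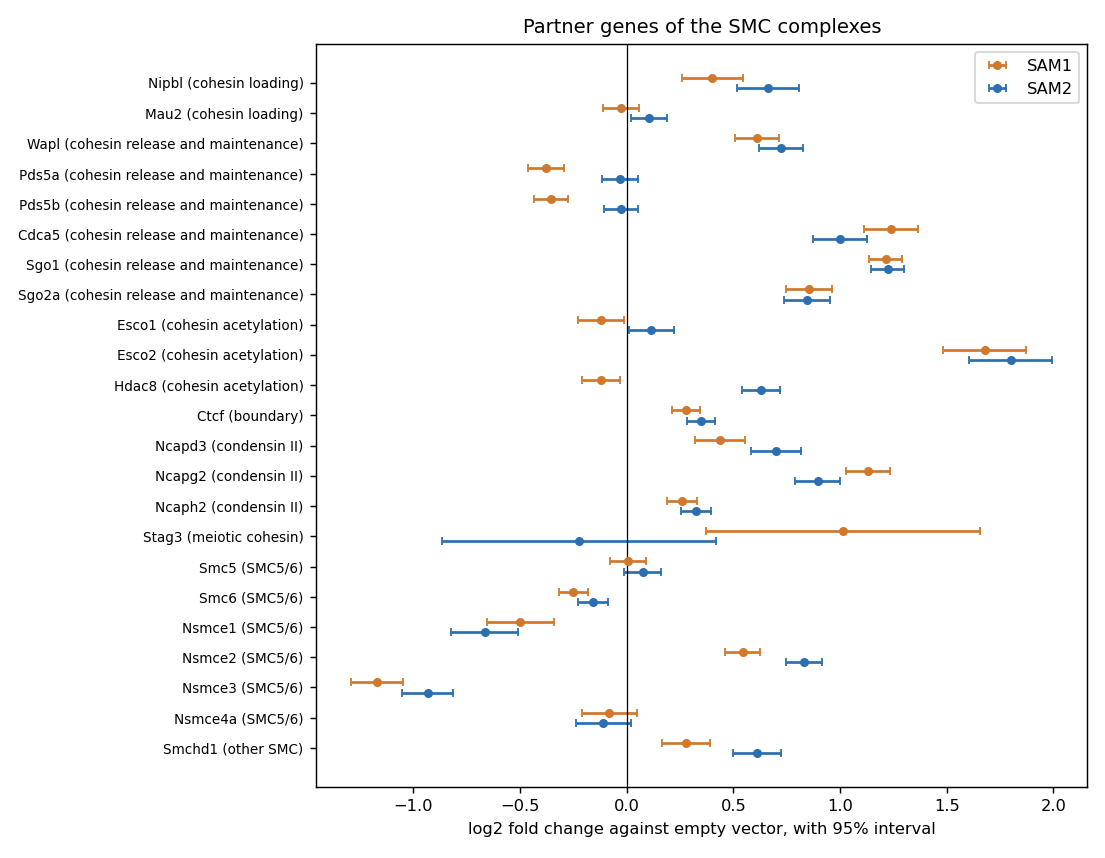
Log2 fold change against the empty vector, with 95% intervals from limma, of the 23 measured partner genes in SAM1 (orange) and SAM2 (blue), ordered by role. Esco2 lies farthest to the right at 1.68 and 1.80, and Nsmce3 farthest to the left at -1.17 and -0.93.

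Genes used as a sign of cycling cells were higher, as the condensin genes were. All 7 of 7 (Mki67, Top2a, Pcna, Mcm2, Ccnb1, Cdk1 and Ccna2) were called higher in both lines. Of all genes 37.3% were called higher in SAM1 and 35.2% in SAM2. Mcm2 was the lowest of the 7 in SAM1 (0.62) and Pcna in SAM2 (0.49), each below every condensin gene in that line. The median log2 fold change of the 7 genes was 0.94 in SAM1 and 1.13 in SAM2. Their summed normalized counts were 25390 to 25695 in Empty, 48661 to 49444 in SAM1 and 51160 to 52015 in SAM2. Markers of other cell types also differed. The 4 endothelial markers summed to 301 to 357 in Empty, 4613 to 4988 in SAM1 and 638 to 689 in SAM2. Kdr alone made up 4490 to 4877 in SAM1 and 504 to 555 in SAM2. Cdh5 was not called in SAM1 (-0.26) and was lower in SAM2 (-0.63). Pecam1 was higher in SAM1 (1.14) and not called in SAM2 (-0.10), and Tek was not called in SAM1 (-0.30) and higher in SAM2 (0.89). The 2 of 3 neural markers in the table summed to 2126 to 2287, 8858 to 9048 and 8211 to 8414. The 3 of 5 macrophage markers summed to 607 to 728, 944 to 977 and 695 to 739, where in SAM2 Cd68 was higher (0.60) and Csf1r (-1.01) and Lyz2 (-0.78) were lower. The 2 of 4 epithelial markers summed to 42 to 50, 110 to 113 and 43 to 52, and the 1 of 3 muscle markers to 44 to 83, 91 to 111 and 223 to 245. Ptprc, Adgre1, Epcam, Krt18, Myod1, Myog and Sox2 were not in the table. The part of any of these genes in the members' differences was not tested.

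The genes outside these lists whose pattern over the 9 libraries came closest to a member's were found by the root-mean-square distance of centred log2 profiles, as a description. Closest to Ncapd2 were Kif2c (0.05), Bub1b and Cdh3. For Ncaph they were Incenp (0.05), Kif23 and Sqor, and for Ncapg Rhoj (0.05), Ttk and Mphosph8. The closest to Rad21 was Cog3 (0.02), to Smc1a Top1 (0.02), to Smc3 Git1 (0.02), to Stag1 C1ql3 (0.02) and to Stag2 Pdxdc1 (0.02). For Smc2 it was Trim44 (0.03) and for Smc4 Cdadc1 (0.03).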

How the data were processed

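The authors purified polyA+ RNA, prepared directional libraries and sequenced them as read pairs of 43 bases. Per the methods and the submitters' processing notes, reads were checked with FastQC 0.11.0, aligned to GRCm39 with TopHat2, allowing 3 mismatches and 20 multihits, and counted with HTSeq on the Gencode vM29 annotation. The deposited signal is the count divided by a DESeq2 size factor, for genes above 10 in at least 30% of libraries. Whole reads were recovered from it in all 9 libraries (100% of values within 0.01 of a whole read).

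Values were tested as log2(value + 1) with limma 3.58.1 (R 4.3.3, empirical Bayes with trend) in 1 fit of the 3 labels, and in a fit of 6 SAM against 3 Empty libraries. Benjamini-Hochberg adjustment ran over 15184 genes at 0.05. Fold changes are on that log2(value + 1) scale. Errors of fold changes are standard errors. edgeR 4.0.16 and DESeq2 1.42.0 on the recovered reads, other scalings, pseudocounts of 0.5 and 10, a filter above 10 in every library, a replicate block and leaving out each library were alternatives. Leaving out the 3 libraries numbered 2, the ratios of condensin I to II and the rise of over 1 were added after seeing the data. The limma and edgeR fits were first tried on simulated data with known changes. DESeq2 and the exact permutation test were not tried in this way.

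All members, the partner, cycling and marker lists, and the 3 nearest genes per member by profile could be named. The members and lists were chosen with earlier results of these data known. Transcript lengths, positions and neighbours came from GENCODE vM39 on GRCm39, a later release than the authors used. Of the table's names, 14791 matched 1 entry in it, 68 matched several and 325 matched none. The replicate libraries differed by more than sampling noise, and each was kept as 1 sample. A chi-square per gene, near 1 under sampling noise alone, was 11.6 to 13.9 between Empty libraries. Between SAM1 libraries it was 1.46 to 9.52, and between SAM2 libraries 1.55 to 2.34. The main fit used 1 spread per gene for all labels, so p-values between the SAM lines also depend on the Empty libraries. Protein sequences were not used here.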

Additional observations from a re-analysis of the deposited data

Results flagged for a closer look

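The 2 SAM lines differed from each other for 7 members and 14 partner genes (limma on log2(value + 1), Benjamini-Hochberg over 15184 genes, 3 libraries against 3). Among the members the difference, SAM2 minus SAM1, was -0.137 for Smc1a, 0.168 for Rad21, -0.405 for Stag1, -0.196 for Stag2, -0.149 for Ncapd2, -0.159 for Ncapg and 0.122 for Ncaph. Rad21 and Ncaph were thus higher in SAM2 and the other 5 lower.

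Among the cohesin partners it was 0.261 for Nipbl, 0.130 for Mau2 (0.08, adjusted p = 0.0927, under upper quartile scaling), 0.347 for Pds5a, 0.325 for Pds5b, -0.239 for Cdca5, 0.237 for Esco1 and 0.751 for Hdac8. Hdac8 had 682 to 694 normalized counts in SAM1 and 1140 to 1169 in SAM2. For condensin II it was 0.263 for Ncapd3 and -0.238 for Ncapg2. The low-count gene Stag3 differed by -1.24. It was 0.0927 for Smc6 (lost under quantile normalization and upper quartile scaling, adjusted p = 0.397 and 0.291), 0.289 for Nsmce2, 0.236 for Nsmce3 and 0.330 for Smchd1. Some genes outside these passed only elsewhere. Nsmce1 (-0.168, adjusted p = 0.0619) passed under quantile normalization, upper quartile scaling, a replicate block and DESeq2 (adjusted p = 0.0315, 0.0218, 0.00784 and 0.0493). Wapl, Ctcf, Ncaph2 and Smc5 passed with the block (adjusted p = 0.00387, 0.0441, 0.0483 and 0.0374). Without the 3 libraries numbered 2, Wapl, Esco2 and Ncaph2 passed (adjusted p = 0.0254, 0.0314 and 0.0113). Over all genes 31.1% were called higher and 29.2% lower in SAM2 than in SAM1.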

How the results depend on the processing

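Of 40 values (10 members in 4 comparisons), all 40 kept direction and side of the threshold under both pseudocounts, the filter and DESeq2, and 38 of 40 under edgeR, quantile normalization and upper quartile scaling. Leaving out 1 library at a time kept 352 values, changed the side of the threshold of 7 and turned the direction of 1, the Smc4 difference between the lines, which had not passed the test (-0.01 with all libraries, -0.0218 to 0.00847 with 1 SAM1 library left out, above 0 without SAM1 replicate 3, adjusted p = 0.853). Without the 3 libraries numbered 2, 37 of 40 were kept. Quantile normalization and upper quartile scaling made the Smc3 difference between the lines pass (-0.12 in both, adjusted p = 0.0045 and 0.00276), and edgeR did so at 0.0480. The log2 ratio of Stag2 to Stag1 ranged from -0.247 to -0.200 and that of Smc4 to Smc2 from 0.0623 to 0.106 when 1 library was left out, and the exact permutation p exceeded 0.05 in 4 and 1 of these. The ratio of Smc3 to Smc1a kept its call, from -0.371 to -0.335. Levels per kb changed with the length used. The causes were not tested.

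Same-numbered libraries correlated at 0.00237 to 0.117 in their deviations from the group means (9 pairs, mean 0.053). Libraries of different numbers correlated at -0.122 to 0.0460 (18 pairs, mean -0.0265). The same-numbered correlations were thus all above 0 but small. The main fits did not pair libraries by number, and whether the numbers mark a shared step was not tested. With a replicate block 10, 9, 8 and 8 members were called in SAM1, SAM2, between the lines and in both lines together, against 10, 8, 7 and 8, as Stag2 in SAM2 (adjusted p = 0.0208) and Smc3 between the lines (adjusted p = 0.0228) passed. Over all genes the block gave 5849 higher and 5782 lower, 5551 and 5544, 5053 and 4759, and 3658 and 3685 in these comparisons. Depth was no limit for the members, which had 871 reads or more in every library.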
